A study of Homo sapiens with 12 samples.

Results

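Potassium channel genes are described here across neural cultures of a pair of human embryonic stem cell lines and across exposure to a glucocorticoid. The genes are the protein-coding genes whose symbol begins with KCN, of which the count files list 97, KCNJ5-AS1 among them, which its name gives as an antisense gene. Kept were the 69 with a level of at least 1 CPM, a count scaled to library size, in at least 3 of the 12 libraries, out of 63925 gene IDs in the files, and all 69 were among the 17819 genes tested. Both H9 and H1 are widely used lines, each 1 genetic background. Their cultures had been grown into neural cells over 10 weeks with inhibitors of SMAD signalling, and polyadenylated RNA was sequenced from 3 cultures per group. The groups were H9 cultures given 1 µM dexamethasone for 6 h, H9 cultures given the DMSO vehicle, H1 cultures given dexamethasone and H1 cultures given vehicle. Dexamethasone is a synthetic agonist of the glucocorticoid receptor. The labels number the cultures of a group and do not say whether they share a differentiation. They are called sister cultures here. A p-value reflects how these cultures vary, which need not be how separate differentiations do, and the line cannot be told apart from its differentiation run.

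Potassium channels let potassium ions leave or enter a cell along their gradient, and so set the resting potential and end the action potential. Voltage-gated channels (Kv) open on depolarisation, calcium-activated channels couple firing to calcium entry, inward rectifiers (Kir) pass current best near the resting potential, and two-pore-domain channels (K2P) carry a background leak. Silent modifiers form channels only together with other Kv subunits, and auxiliary subunits change the gating or the surface level of a pore. The members fell into 9 classes by symbol. There were 13 of 17 voltage-gated genes of the Kv1 to Kv4 families, 4 of 5 KCNQ genes and 7 of 8 ether-a-go-go (KCNH) genes. There were also 6 of 10 silent modifiers, 9 of 13 auxiliary subunits of voltage-gated channels and 6 of 8 calcium- or sodium-activated pores. The last 3 classes held 3 of 4 auxiliary subunits of the large-conductance channel BK, 13 of 17 genes with an inward rectifier (KCNJ) symbol and 8 of 15 two-pore-domain genes. The 17 include KCNJ5-AS1, which is annotated as protein coding and was not kept.

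Total counts ran from 14751168 to 27505804 per library. H9 vehicle culture 3 stood apart from its sisters. It had the lowest total, its mitochondrial genes took 0.607% of counts, where its 5 fellow H9 libraries had 4.80% to 5.64%, and 0.221% of its counts lay on the 69 members against 0.139% to 0.152%. In the H1 libraries the members took 0.0980% to 0.116%. NES, an intermediate filament gene of neural progenitors, was at 5541 CPM in that culture and at 880.3 to 1093 CPM in the other H9 cultures. Where leaving it out ended a call or moved a called difference by over 1.5 times, the value without it is given. As a check of the treatment labels, FKBP5, a co-chaperone gene that the glucocorticoid receptor induces, was at 29.3, 25.5 and 29.8 CPM in the H9 dexamethasone cultures and 4.74, 3.76 and 4.76 CPM in the H9 vehicle cultures. In H1 it was at 18.9, 22.9 and 25.1 CPM with dexamethasone and 5.97, 5.73 and 4.88 CPM with vehicle, so treated and vehicle cultures did not overlap in either line.

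Set against each other per kilobase of exon, the channel genes covered a wide range. All levels are CPM scaled by the TMM method of edgeR, and levels of different genes are compared only per kilobase. KCND3, a pore of the A-type current, had a mean level over the 12 libraries of 11.1 CPM per kb, and KCNMB4, the neuronal beta subunit of BK, one of 8.42. KCNH8, an ether-a-go-go pore, led its class at 7.59 CPM per kb and KCNK3, an acid-sensitive leak channel, led the two-pore-domain genes at 7.37. KCNN3, a small-conductance calcium-activated channel (SK), stood at 6.41, the calcium-binding Kv4 partner KCNIP1 at 6.34, the silent modifier KCNF1 at 6.12 and KCNJ9, a subunit of G protein-gated Kir channels, at 4.33 CPM per kb. Each of these was the highest of its class by this measure. The length used was that of all annotated exons of a gene merged. For KCNMA1, the pore of BK, it was 35644 bases, so a mean of 95.7 CPM came to 2.68 CPM per kb. Ranks, sums and ratios per kb depend on this choice of length. Summed over members, the Kv1 to Kv4 genes held 20.4% of the level per kb of all 69, the two-pore-domain genes 14.0% and the KCNQ genes 11.1%.

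The first comparison asked which channel genes differed between the lines, H9 against H1. Most members were higher in H9. In the vehicle cultures 41 of 69 members were higher in H9 (59.4%), where 25.7% of all genes tested were higher, and 7 were lower (10.1%), where 21.2% of all genes were lower, by edgeR's quasi-likelihood test at an adjusted p under 0.05. In the dexamethasone cultures 38 members were higher (55.1%), where the share of all genes was 22.5%, and 7 were lower (10.1%), where it was 21.2%. The median log2 difference of the members was 0.71 in the dexamethasone cultures and 0.88 in the vehicle cultures, and that of all genes was -0.01 and 0.03. In both treatments 35 members were higher, where 18.3% of all genes were, and 6 lower, where 14.7% were. A further 11 passed in 1 treatment and 17 in neither. No member passed higher in one treatment and lower in the other. A gene could be kept through 1 line alone, as 3 libraries at 1 CPM were enough. KCNA5, KCNG3 and KCNJ16, among others, reached 1 CPM in H9 libraries only, and KCNAB3 and KCNK6 in H1 libraries only. The line difference of such members is partly built into their being kept. All genes tested had passed another filter, filterByExpr, so the shares of members and of all genes rest on unlike filters. Without H9 vehicle culture 3 the vehicle counts were 42 higher and 8 lower, with backgrounds of 30.1% and 28.6%. The calls of KCNQ5 and KCNH3 were then lost, and KCNG1, KCNMB1, KCNMB2 and KCNJ8 gained one. The 4 groups share 1 estimate of spread, so that culture also bears on the test of the dexamethasone cultures. There the counts without it were 45 higher and 9 lower, where 11697 of 18098 genes passed either way. Calls below are from the fit of all 12 libraries unless stated.

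**Figure D1:**
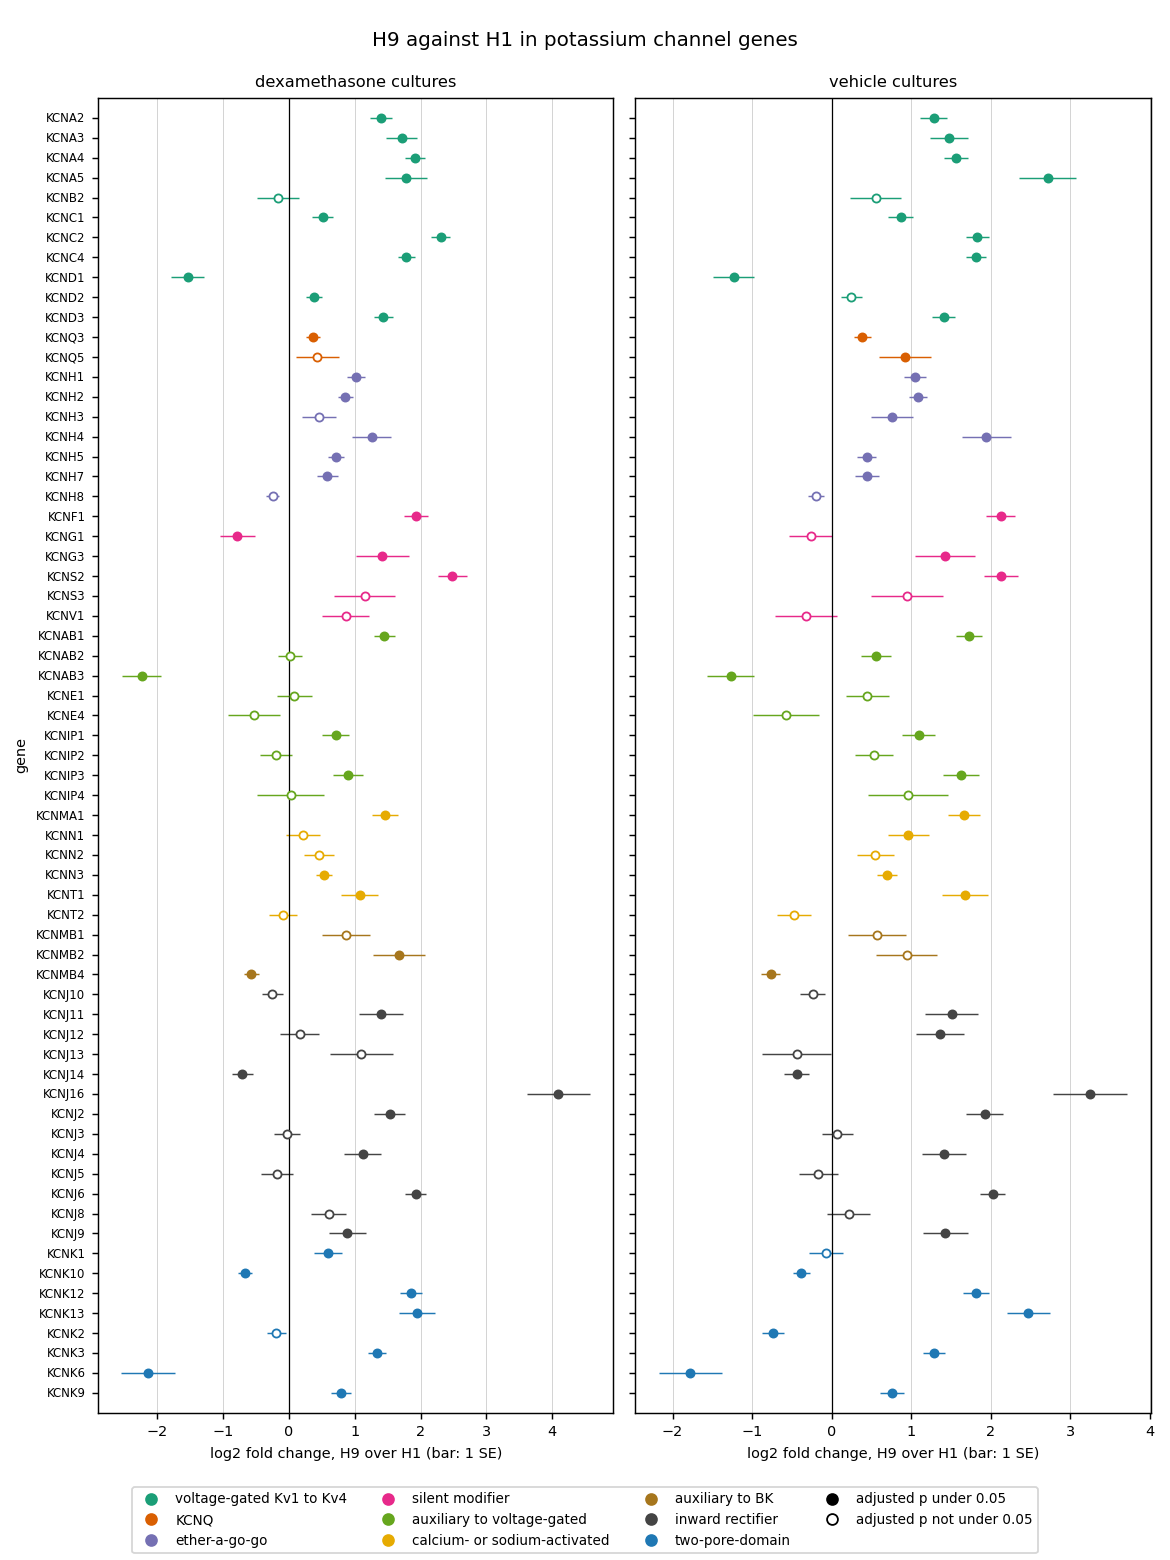
Log2 fold change of H9 over H1 for the members shown (rows, coloured by channel class), in the dexamethasone cultures on the left and the vehicle cultures on the right. Bars are 1 standard error and filled points have an adjusted p under 0.05. Most filled points lie right of 0, and KCNJ16 lies farthest right at 4.09 and 3.25.

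In bulk RNA, fewer cells of a type and less RNA per cell cannot be told apart. Markers of several cell types moved with the line. Of all genes tested, 25.7% were higher and 21.2% lower in H9 in the vehicle cultures. In the dexamethasone cultures the shares were 22.5% and 21.2%. Of 10 neuronal markers, 6 were higher in H9 and 0 lower in each treatment, and their summed level was 6149.6 to 6336 CPM in the H9 dexamethasone cultures and 5511 to 5708 CPM in the H9 vehicle cultures, against 3610.2 to 4157 and 3720.4 to 3722 CPM in the H1 dexamethasone and H1 vehicle cultures. Of 8 astrocyte markers, 5 were higher in the dexamethasone cultures and 4 in the vehicle cultures, with sums of 2011 to 2514 CPM with dexamethasone and 1524 to 2163 CPM with vehicle in H9 and 861 to 972 CPM with dexamethasone and 933 to 1057 CPM with vehicle in H1. All 7 markers of proliferating cells were lower in H9, with sums of 79.9 to 100.0 CPM with dexamethasone and 62.0 to 88.0 CPM with vehicle in H9 and 480.1 to 489.9 CPM with dexamethasone and 418 to 486 CPM with vehicle in H1. Of 8 mesenchymal markers 4 were lower and 1 higher in H9, and their sum was 209.6 to 244 CPM with dexamethasone and 233 to 381 CPM with vehicle in H9 and 1444 to 3055 CPM with dexamethasone and 1819 to 3269 CPM with vehicle in H1. Of 4 choroid plexus markers, 2 were higher in the dexamethasone cultures and 3 in the vehicle cultures, with median log2 differences of 2.14 and 2.49, and they summed to 28.7 to 145 CPM with dexamethasone and 20.1 to 114 CPM with vehicle in H9 and 9.11 to 22.8 CPM with dexamethasone and 7.88 to 18.7 CPM with vehicle in H1. Of 7 oligodendrocyte lineage markers 2 were higher in both treatments, where 18.3% of all genes were. They summed to 119 to 132 CPM with dexamethasone and 46.9 to 119.6 CPM with vehicle in H9. In H1 they summed to 89.8 to 96.8 CPM with dexamethasone and 83.2 to 89.3 CPM with vehicle. H9 vehicle culture 3 gave the 46.9 CPM, and its sisters had 114.7 and 119.6 CPM. That culture was also the lowest H9 vehicle culture for the neuronal, astrocyte and choroid plexus sums and the highest for the mesenchymal sum. Endothelial and microglial markers summed to at most 1.495 and 0.729 CPM in any library. Of 7 neural progenitor markers 5 were tested. In H9, 1 was higher and 0 lower with vehicle, and 0 were called either way with dexamethasone. They summed to 4533 to 5010 CPM with dexamethasone and 4732 to 7937 CPM with vehicle in H9. In H1 they summed to 4267 to 5004 CPM with dexamethasone and 4621 to 4825 CPM with vehicle. H9 vehicle culture 3 gave the 7937 CPM, and its sisters had 4732 and 5008 CPM. The progenitor genes SOX2 and HES5 were listed at 0 in every library, while other progenitor markers were abundant. The part of cell composition in the differences below was not tested.

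The promoters of 4 members that the results turn on are printed below, to show what lies at the start of genes with a large line difference or a dexamethasone difference that passed in an alternative fit. KCNJ16 and KCNF1 were higher in H9, KCNK6 was lower in H9, and KCNJ13 was the member that passed for dexamethasone when H9 vehicle culture 3 was left out. The sequences run 5′ to 3′ from 250 bases before the annotated start to 50 after it, from RefSeq on GRCh38.p14, and lie at chr17:70074975-70075274 (plus strand), chr2:10911684-10911983 (plus), chr19:38319595-38319894 (plus) and chr2:232776516-232776815 (minus). KCNJ16 has 3 starts in the RefSeq table and the most upstream of these is shown, which lies inside the longer interval that GENCODE 29 gives for the gene. Capitals mark the motifs searched on both strands.
KCNJ16: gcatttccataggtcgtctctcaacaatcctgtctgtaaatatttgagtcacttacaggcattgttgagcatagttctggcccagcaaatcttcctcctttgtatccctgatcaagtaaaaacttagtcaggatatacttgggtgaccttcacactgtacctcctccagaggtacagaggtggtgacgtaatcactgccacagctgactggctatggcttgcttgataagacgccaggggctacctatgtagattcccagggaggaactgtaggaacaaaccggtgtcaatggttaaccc
KCNF1: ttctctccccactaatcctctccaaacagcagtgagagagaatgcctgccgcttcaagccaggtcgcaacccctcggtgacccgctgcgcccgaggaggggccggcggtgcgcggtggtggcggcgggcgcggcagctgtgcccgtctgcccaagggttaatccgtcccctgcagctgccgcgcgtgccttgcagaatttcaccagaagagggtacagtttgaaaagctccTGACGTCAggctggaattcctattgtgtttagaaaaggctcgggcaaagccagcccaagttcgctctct
KCNK6: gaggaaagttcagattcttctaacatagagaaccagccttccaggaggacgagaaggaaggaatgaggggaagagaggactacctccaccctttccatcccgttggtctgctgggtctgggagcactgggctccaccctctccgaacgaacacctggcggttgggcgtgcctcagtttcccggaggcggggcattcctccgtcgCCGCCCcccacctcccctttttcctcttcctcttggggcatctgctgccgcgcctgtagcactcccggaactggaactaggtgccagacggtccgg
KCNJ13: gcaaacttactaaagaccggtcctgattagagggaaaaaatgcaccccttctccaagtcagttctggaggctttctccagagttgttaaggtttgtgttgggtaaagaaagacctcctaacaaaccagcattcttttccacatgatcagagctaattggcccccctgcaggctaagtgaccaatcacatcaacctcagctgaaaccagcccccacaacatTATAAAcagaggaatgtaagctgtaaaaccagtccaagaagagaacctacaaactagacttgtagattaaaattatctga
Promoters were found for 50 of the 69 members, with 82 starts. The GC box GGGCGG lay in 51.2% of the members' promoters and in 44.95% of all 35116 promoters of the same length, and it is the motif marked in KCNK6, as its reverse complement. The TATA box TATAAA lay in 7.32% against 11.53%, and it is the one marked in KCNJ13. The cyclic AMP response element TGACGTCA was in 1 of the 82, that of KCNF1, and in 1.85% of all. The E-box CACGTG was in 7.32% and 7.26%. The palindromic glucocorticoid response element, GAACA and TGTTC with any 3 bases between, had no match in the members' windows and was in 0.0228% of all. None of the motifs overlap each other in the windows shown.

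Of the 13 Kv1 to Kv4 genes, 9 were higher and 1 lower in H9 in both treatments. KCNC2 (ENSG00000166006, chr12:75040077-75209868 on GRCh38), a Kv3 pore of fast-firing neurons, was at 32.4, 26.5 and 29.5 CPM in the H9 dexamethasone cultures and 28.7, 20.2 and 21.7 CPM in the H9 vehicle cultures, against 6.33, 6.23 and 5.35 CPM in the H1 dexamethasone cultures and 6.35, 6.61 and 6.84 CPM in the H1 vehicle cultures. Every H9 culture lay above every H1 culture. In the dexamethasone cultures this was a log2 difference of 2.30 ± 0.15 (adjusted p = 3.85e-07), and in the vehicle cultures one of 1.83 ± 0.15 (adjusted p = 2.18e-06). By GENCODE 29, 35.5% of its exonic bases are shared with a gene on the other strand, whose reads cannot be told apart without a stated strand setting. KCNC4, another Kv3 pore, was at 44.1, 37.2 and 44.8 CPM in the H9 dexamethasone cultures and 46.0, 43.8 and 58.0 CPM in the H9 vehicle cultures, against 12.9, 11.50 and 12.3 CPM in the H1 dexamethasone cultures and 14.4, 13.2 and 14.3 CPM in the H1 vehicle cultures. The lines did not overlap here either, and its log2 differences were 1.78 with dexamethasone and 1.82 with vehicle (adjusted p = 7.94e-07 and 7.26e-07). KCNA5, a Kv1 pore best known from heart and smooth muscle, was low, at 1.73, 2.00 and 1.99 CPM in the H9 dexamethasone cultures and 1.78, 1.71 and 2.51 CPM in the H9 vehicle cultures, against 0.347, 0.454 and 0.859 CPM in the H1 dexamethasone cultures and 0.424, 0.267 and 0.200 CPM in the H1 vehicle cultures. H9 was higher by 1.78 with dexamethasone and 2.72 with vehicle on the log2 scale in the dexamethasone and vehicle cultures (adjusted p = 0.000814 and 8.3e-05).

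KCND3, which had the highest level per kb of the class, averaged 127 ± 6.19 CPM in the H9 dexamethasone cultures and 127 ± 19.7 in the H9 vehicle cultures, against 47.1 ± 4.15 with dexamethasone and 47.6 ± 8.08 with vehicle in H1 (SD, n = 3 each). It was higher in H9 by 1.43 with dexamethasone and 1.41 with vehicle on the log2 scale. Its family member KCND2 was nearly even, with averages of 26.6 ± 1.42 CPM with dexamethasone and 25.6 ± 3.54 CPM with vehicle in H9 and 20.4 ± 2.79 CPM with dexamethasone and 21.5 ± 0.912 CPM with vehicle in H1, and it passed in the dexamethasone cultures only (adjusted p = 0.0308 against 0.128). The ratio of KCND3 to KCND2 per kb was thus 3.37 ± 0.0628 with dexamethasone and 3.49 ± 0.126 with vehicle in H9 and 1.64 ± 0.184 with dexamethasone and 1.57 ± 0.324 with vehicle in H1, without overlap between the lines. KCND1, the third pore of the Kv4 family, went the other way. It was at 1.53, 1.63 and 1.42 CPM in the H9 dexamethasone cultures and 1.46, 1.09 and 2.31 CPM in the H9 vehicle cultures, against 5.63, 3.79 and 3.90 CPM in the H1 dexamethasone cultures and 3.90, 3.32 and 3.84 CPM in the H1 vehicle cultures, lower in H9 by 1.54 with dexamethasone and 1.23 with vehicle on the log2 scale (adjusted p = 0.000382 and 0.00206). Among the other members, KCNA2, KCNA3, KCNA4 and KCNC1 passed in both treatments, and their log2 differences ran from 0.51 to 1.91. KCNB2, a pore of the delayed rectifier current, passed in neither, and its vehicle difference of 0.55 became -0.06 without H9 vehicle culture 3. KCNC1 lost its call between the lines in the dexamethasone cultures without any 1 of H9 dexamethasone culture 3 and H1 dexamethasone culture 2 (adjusted p = 0.0616). KCND2 lost its call between the lines in the dexamethasone cultures without any 1 of H9 dexamethasone culture 1 and 3 and H1 dexamethasone culture 3 (adjusted p = 0.0764 to 0.124).

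**Figure D2:**
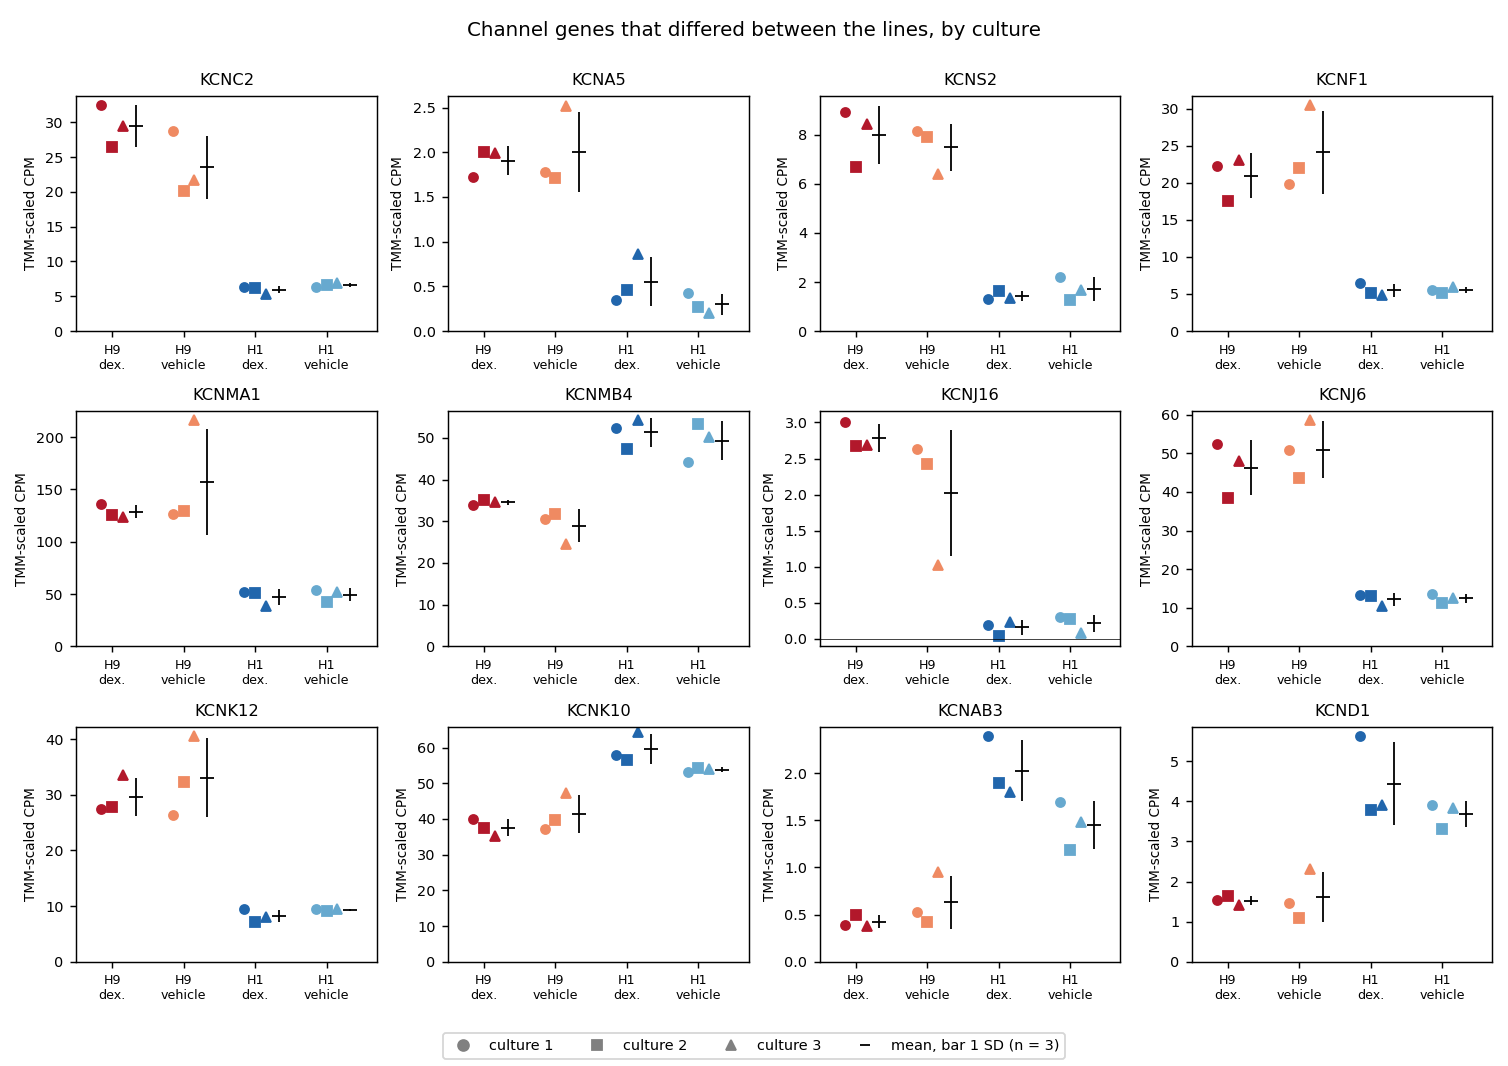
TMM-scaled CPM of 12 members in each culture, by group in the order H9 dexamethasone, H9 vehicle, H1 dexamethasone and H1 vehicle. Symbols are culture numbers, and the bar beside them is the mean with 1 SD of 3 cultures. KCNMB4, KCNK10, KCNAB3 and KCND1 are lower in H9 and the other 8 are higher.

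Among the 4 KCNQ genes, 2 were higher in H9 in both treatments. KCNQ3, a subunit of the M-type channels that damp repetitive firing, was at 55.9, 57.4 and 58.3 CPM in the H9 dexamethasone cultures and 56.1, 61.2 and 68.5 CPM in the H9 vehicle cultures, against 44.7, 49.3 and 39.2 CPM in the H1 dexamethasone cultures and 47.3, 44.9 and 49.6 CPM in the H1 vehicle cultures. The lines did not overlap. KCNQ3 thus differed by 0.37 ± 0.11 on the log2 scale with dexamethasone (adjusted p = 0.0147) and by 0.39 ± 0.11 with vehicle (adjusted p = 0.0102). KCNQ5, another M-type subunit, was at 5.23, 3.34 and 2.76 CPM in the H9 dexamethasone cultures and 4.86, 3.59 and 8.36 CPM in the H9 vehicle cultures, against 2.93, 3.50 and 1.91 CPM in the H1 dexamethasone cultures and 3.09, 2.79 and 2.80 CPM in the H1 vehicle cultures. The vehicle cultures of the lines did not overlap and the dexamethasone cultures did, and H9 vehicle culture 3 was the highest. It passed in the vehicle cultures, at 0.93 on the log2 scale (adjusted p = 0.0352), and was at 0.55 without H9 vehicle culture 3 and at 0.90 to 0.97 without any 1 of the H1 vehicle cultures. KCNQ5 lost its call between the lines in the vehicle cultures without any 1 of H9 vehicle culture 3 and H1 vehicle culture 1, 2 and 3 (adjusted p = 0.0697 to 0.0917). KCNQ3 lost its call between the lines in the dexamethasone cultures without H1 dexamethasone culture 3 (adjusted p = 0.0668).

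Of the 7 ether-a-go-go genes, 5 were higher in H9 in both treatments and none lower. KCNH4 had the largest differences, 1.25 with dexamethasone and 1.95 with vehicle on the log2 scale, at 3.600, 3.76 and 3.30 CPM in the H9 dexamethasone cultures and 4.21, 3.67 and 7.61 CPM in the H9 vehicle cultures, against 2.01, 0.990 and 1.44 CPM in the H1 dexamethasone cultures and 1.48, 1.18 and 1.28 CPM in the H1 vehicle cultures. The lines did not overlap, and H9 vehicle culture 3 was the highest. KCNH1 followed at 1.02 with dexamethasone and 1.05 with vehicle, although 53.0% of its exonic bases are shared with other annotated genes on either strand. KCNH2 (hERG), the pore of the rapid delayed rectifier of heart and neurons, averaged 56.4 ± 3.50 CPM with dexamethasone and 56.6 ± 8.05 CPM with vehicle in H9 and 31.2 ± 1.87 CPM with dexamethasone and 26.5 ± 1.21 CPM with vehicle in H1, a log2 difference of 0.85 with dexamethasone and 1.09 with vehicle (adjusted p = 7.31e-05 and 1.23e-05). KCNH5 and KCNH7 were higher by 0.44 to 0.71. KCNH8, the class member with the highest level per kb, averaged 43.3 ± 3.37 CPM with dexamethasone and 42.8 ± 4.44 CPM with vehicle in H9 and 51.5 ± 3.00 CPM with dexamethasone and 49.0 ± 0.912 CPM with vehicle in H1, and did not pass (adjusted p = 0.0615 and 0.130). Without H9 vehicle culture 3 it passed as lower in H9 in the dexamethasone cultures (adjusted p = 0.0124) but not in the vehicle cultures (adjusted p = 0.0546), by edgeR. KCNH3 passed in the vehicle cultures only, at 0.76, and was at 0.31 without H9 vehicle culture 3 and at 0.71 to 0.79 without any 1 of the H1 vehicle cultures. In the fit without H9 vehicle culture 3 it passed in the dexamethasone cultures instead, at 0.45 (adjusted p = 0.00701 by edgeR). KCNH3 lost its call between the lines in the vehicle cultures without any 1 of H9 vehicle culture 3 and H1 vehicle culture 1, 2 and 3 (adjusted p = 0.0692 to 0.0931). KCNH5 lost its call between the lines in the vehicle cultures without H9 vehicle culture 2 (adjusted p = 0.0507). KCNH7 lost its call between the lines in the vehicle cultures without any 1 of H9 vehicle culture 1 and H1 vehicle culture 1, 2 and 3 (adjusted p = 0.0705 to 0.109).

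Among the 6 silent modifiers, which change the current of Kv2 channels and others, KCNS2, KCNF1 and KCNG3 were higher in H9 in both treatments. KCNF1 (chr2:10911937-10914225), whose promoter is printed above, was at 22.2, 17.6 and 23.1 CPM in the H9 dexamethasone cultures and 19.9, 22.0 and 30.4 CPM in the H9 vehicle cultures, against 6.45, 5.15 and 4.88 CPM in the H1 dexamethasone cultures and 5.51, 5.12 and 5.88 CPM in the H1 vehicle cultures. The log2 fold change of KCNF1 was 1.93 ± 0.18 in the dexamethasone cultures (adjusted p = 6.4e-06) and 2.13 ± 0.18 in the vehicle cultures (adjusted p = 3.58e-06). The lines did not overlap. KCNS2 was at 8.93, 6.68 and 8.44 CPM in the H9 dexamethasone cultures and 8.14, 7.93 and 6.39 CPM in the H9 vehicle cultures, against 1.31, 1.65 and 1.33 CPM in the H1 dexamethasone cultures and 2.20, 1.26 and 1.68 CPM in the H1 vehicle cultures, with log2 differences of 2.48 with dexamethasone and 2.13 with vehicle (adjusted p = 3.23e-06 and 9.97e-06). KCNG3 was low in all, at averages of 1.27 ± 0.168 CPM with dexamethasone and 1.66 ± 0.616 CPM with vehicle in H9 and 0.473 ± 0.236 CPM with dexamethasone and 0.594 ± 0.231 CPM with vehicle in H1. KCNG1 averaged 10.5 ± 1.75 CPM in H9 and 18.0 ± 4.61 CPM in H1 with dexamethasone and was lower in H9 there (log2 fold change -0.79 ± 0.27, adjusted p = 0.0322). In the vehicle cultures it did not pass (adjusted p = 0.444), but it did without H9 vehicle culture 3 (adjusted p = 0.0190). KCNS3 and KCNV1 passed in neither, but without H9 vehicle culture 3 both passed in the dexamethasone cultures (adjusted p = 0.0115 and 0.00619 by edgeR). KCNG1 lost its call between the lines in the dexamethasone cultures without any 1 of H9 dexamethasone culture 1, 2 and 3 and H1 dexamethasone culture 1 and 2 (adjusted p = 0.0570 to 0.138). KCNG3 lost its call between the lines in the dexamethasone cultures without H1 dexamethasone culture 3 (adjusted p = 0.0537).

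The 9 auxiliary subunits of voltage-gated channels were mixed, with 3 higher and 1 lower in both treatments. KCNAB1, a beta subunit of Kv1 channels, was higher in H9 by 1.45 with dexamethasone and 1.73 with vehicle on the log2 scale, at averages of 14.4 ± 1.14 CPM with dexamethasone and 15.4 ± 2.70 CPM with vehicle in H9 and 5.29 ± 1.05 CPM with dexamethasone and 4.64 ± 0.215 CPM with vehicle in H1. KCNAB3, the third Kv1 beta subunit, was lower in H9, at 0.395, 0.501 and 0.383 CPM in the H9 dexamethasone cultures and 0.527, 0.417 and 0.951 CPM in the H9 vehicle cultures, against 2.39, 1.90 and 1.80 CPM in the H1 dexamethasone cultures and 1.69, 1.18 and 1.48 CPM in the H1 vehicle cultures. In the dexamethasone cultures this was a log2 difference of -2.24 ± 0.30 (adjusted p = 8.61e-05), and in the vehicle cultures one of -1.27 ± 0.30 (adjusted p = 0.00430). KCNAB2, the second, averaged 24.3 ± 2.06 CPM with dexamethasone and 31.8 ± 10.96 CPM with vehicle in H9 and 24.0 ± 0.744 CPM with dexamethasone and 21.5 ± 0.841 CPM with vehicle in H1 and passed in the vehicle cultures only, at 0.56 on the log2 scale (adjusted p = 0.0271). That difference was 0.26 without H9 vehicle culture 3 (adjusted p = 0.0339). Among the KChIPs, calcium-binding partners of Kv4, KCNIP3 and KCNIP1 were higher in H9 by 0.89 with dexamethasone and 1.63 with vehicle and by 0.71 with dexamethasone and 1.09 with vehicle. KCNIP4 was at 18.0, 13.2 and 14.3 CPM in the H9 dexamethasone cultures and 13.9, 13.0 and 67.8 CPM in the H9 vehicle cultures, against 14.8, 17.9 and 11.98 CPM in the H1 dexamethasone cultures and 16.9, 13.5 and 17.7 CPM in the H1 vehicle cultures. H9 vehicle culture 3 was the highest, the other cultures of both lines overlapped, and its vehicle difference of 0.96 turned to -0.25 without it, with neither passing the test. KCNIP2, KCNE1 and KCNE4 passed in neither treatment. KCNAB2 lost its call between the lines in the vehicle cultures without any 1 of H1 vehicle culture 1, 2 and 3 (adjusted p = 0.0568 to 0.0806).

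Of the 6 calcium- or sodium-activated pores, KCNMA1, KCNT1 and KCNN3 were higher in H9 in both treatments. KCNMA1 (chr10:76869601-77638369), the pore of BK, was at 136, 126 and 124 CPM in the H9 dexamethasone cultures and 127, 129.6 and 216 CPM in the H9 vehicle cultures, against 51.9, 50.8 and 38.3 CPM in the H1 dexamethasone cultures and 54.1, 42.5 and 52.1 CPM in the H1 vehicle cultures. KCNMA1 thus differed by 1.45 ± 0.20 on the log2 scale with dexamethasone (adjusted p = 0.000114) and by 1.67 ± 0.20 with vehicle (adjusted p = 4.36e-05). Without H9 vehicle culture 3, its highest library, the vehicle difference was 1.37 (adjusted p = 4.3e-08). KCNT1, a sodium-activated channel, was low and higher in H9 by 1.07 with dexamethasone and 1.68 with vehicle. KCNN3 was higher by 0.53 with dexamethasone and 0.70 with vehicle (adjusted p = 0.00438 and 0.000715). KCNN1, another SK pore, passed in the vehicle cultures only, at 0.96, and was at 0.51 without H9 vehicle culture 3 (adjusted p = 0.00355). KCNN2 and KCNT2 passed in neither.

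The auxiliary subunit KCNMB4 (chr12:70366276-70434292), which slows BK gating and changes its toxin sensitivity in neurons, moved opposite to its pore. It was at 33.8, 35.2 and 34.6 CPM in the H9 dexamethasone cultures and 30.7, 31.7 and 24.5 CPM in the H9 vehicle cultures, against 52.5, 47.4 and 54.2 CPM in the H1 dexamethasone cultures and 44.3, 53.5 and 50.2 CPM in the H1 vehicle cultures. Every H9 culture was below every H1 culture. The log2 fold change of KCNMB4 was -0.57 ± 0.11 in the dexamethasone cultures (adjusted p = 0.00163) and -0.77 ± 0.11 in the vehicle cultures (adjusted p = 0.000223). The ratio of KCNMB4 to KCNMA1 per kb was therefore 1.97 ± 0.126 in the H9 dexamethasone cultures and 1.46 ± 0.548 in the H9 vehicle cultures, against 8.19 ± 1.90 with dexamethasone and 7.41 ± 1.64 with vehicle in H1, and the lines did not overlap. Another BK auxiliary gene, KCNMB2, was low and higher in H9 with dexamethasone (log2 fold change 1.67 ± 0.39, adjusted p = 0.00452), and 32.1% of its exonic bases are shared with another annotated gene. KCNMB1, best known from smooth muscle, passed in neither treatment. The 7 markers of smooth and striated muscle summed to 213 to 292 and 147 to 230.5 CPM in the H9 dexamethasone and H9 vehicle cultures, and to 223 to 287 CPM with dexamethasone and 284 to 331 CPM with vehicle in H1.

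**Figure D3:**
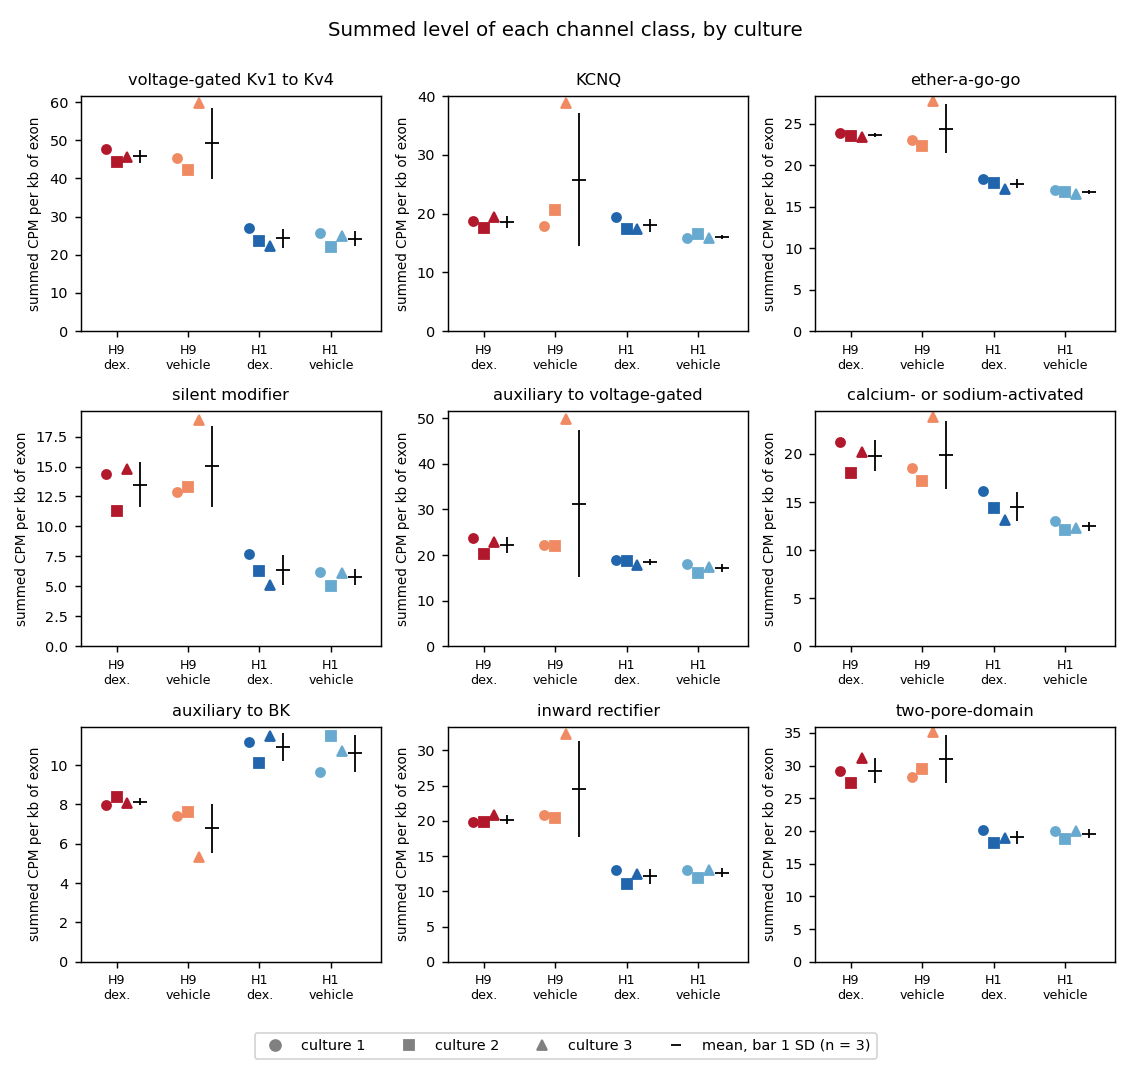
Summed CPM per kb of exon over the members of each channel class, in each culture, by group in the order H9 dexamethasone, H9 vehicle, H1 dexamethasone and H1 vehicle. Symbols are culture numbers and bars are mean and 1 SD of 3 cultures. The BK auxiliary class is the one whose sum is lower in H9, through KCNMB4 and not its other members. H9 vehicle culture 3 is the highest culture in every class except that one.

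Summed by class, the Kv1 to Kv4 genes reached 45.9 ± 1.74 CPM per kb in the H9 dexamethasone cultures and 49.2 ± 9.32 in the H9 vehicle cultures, against 24.4 ± 2.45 with dexamethasone and 24.3 ± 2.06 with vehicle in H1. The silent modifiers reached 13.5 ± 1.89 with dexamethasone and 15.0 ± 3.38 with vehicle in H9 and 6.38 ± 1.28 with dexamethasone and 5.78 ± 0.675 with vehicle in H1. The BK auxiliary genes were at 8.15 ± 0.193 with dexamethasone and 6.78 ± 1.26 with vehicle in H9 and 10.9 ± 0.719 with dexamethasone and 10.6 ± 0.932 with vehicle in H1. Of these genes KCNMB4 alone was lower in H9. The log2 differences of KCNMB1 and KCNMB2 were positive, at 0.87 and 1.67 with dexamethasone and 0.57 and 0.94 with vehicle. Only that of KCNMB2 with dexamethasone passed. Over all 69 members the ratio of H9 to H1 was 1.42 in the dexamethasone cultures and 1.68 in the vehicle cultures, or 1.45 in the vehicle cultures without H9 vehicle culture 3. These sums carry no test.

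Of the 13 inward rectifiers, 6 were higher in H9 in both treatments and 1 lower. KCNJ16 (chr17:70053429-70135608), a Kir subunit of glia and epithelia that pairs with KCNJ10, was at 3.01, 2.67 and 2.68 CPM in the H9 dexamethasone cultures and 2.63, 2.42 and 1.02 CPM in the H9 vehicle cultures, against 0.193, 0.0412 and 0.234 CPM in the H1 dexamethasone cultures and 0.297, 0.267 and 0.0800 CPM in the H1 vehicle cultures. The counts behind the H1 values were 5, 1 and 6 with dexamethasone and 7, 7 and 2 with vehicle. In the dexamethasone cultures this was a log2 difference of 4.09 ± 0.48 (adjusted p = 3.2e-05), and in the vehicle cultures one of 3.25 ± 0.47 (adjusted p = 0.000165). H9 vehicle culture 3 was the lowest H9 culture and still lay above every H1 culture. The choroid plexus markers given above were also higher in H9 in part, 2 of 4 with dexamethasone and 3 of 4 with vehicle, and their part in the line difference of KCNJ16 was not tested. Its partner KCNJ10, the main astrocytic Kir channel, did not follow. It averaged 4.03 ± 0.381 CPM with dexamethasone and 3.99 ± 0.753 CPM with vehicle in H9 and 4.80 ± 0.296 CPM with dexamethasone and 4.75 ± 0.115 CPM with vehicle in H1 (adjusted p = 0.212 and 0.234). The ratio of KCNJ16 to KCNJ10 per kb was 0.721 ± 0.0649 with dexamethasone and 0.508 ± 0.152 with vehicle in H9 and 0.0338 ± 0.0225 with dexamethasone and 0.0471 ± 0.0261 with vehicle in H1. KCNJ2, the classical strong inward rectifier, lies 33.1 kb from KCNJ16 on chromosome 17 and was also higher in H9, by 1.53 with dexamethasone and 1.92 with vehicle on the log2 scale, at averages of 4.30 ± 0.502 CPM with dexamethasone and 5.42 ± 1.36 CPM with vehicle in H9 and 1.49 ± 0.145 CPM with dexamethasone and 1.44 ± 0.341 CPM with vehicle in H1.

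KCNJ6 (GIRK2), a pore of the G protein-gated channels that neurotransmitters open, was at 52.4, 38.6 and 48.0 CPM in the H9 dexamethasone cultures and 50.8, 43.6 and 58.5 CPM in the H9 vehicle cultures, against 13.3, 13.0 and 10.3 CPM in the H1 dexamethasone cultures and 13.6, 11.3 and 12.5 CPM in the H1 vehicle cultures. The lines did not overlap, and the log2 differences were 1.92 with dexamethasone and 2.03 with vehicle (adjusted p = 2.09e-06 and 1.52e-06). KCNJ9 (GIRK3), the class member with the highest level per kb, was higher by 0.88 with dexamethasone and 1.43 with vehicle, and the vehicle value was 0.89 without H9 vehicle culture 3. KCNJ3 (GIRK1), which joins either of them, averaged 3.59 ± 0.767 CPM with dexamethasone and 3.43 ± 0.329 CPM with vehicle in H9 and 3.68 ± 0.715 CPM with dexamethasone and 3.28 ± 0.247 CPM with vehicle in H1 and did not pass (adjusted p = 0.911 and 0.784). The ratio of KCNJ6 to KCNJ3 per kb was 3.44 ± 1.18 with dexamethasone and 3.80 ± 0.739 with vehicle in H9 and 0.859 ± 0.179 with dexamethasone and 0.969 ± 0.105 with vehicle in H1. KCNJ11, the pore of the ATP-sensitive channel, was higher by 1.40 with dexamethasone and 1.51 with vehicle, and the vehicle value was 0.91 without H9 vehicle culture 3 (adjusted p = 0.000222). KCNJ4 was higher by 1.12 with dexamethasone and 1.41 with vehicle. KCNJ14 was lower in H9, at averages of 5.68 ± 0.811 CPM with dexamethasone and 6.21 ± 0.574 CPM with vehicle in H9 and 9.31 ± 1.07 CPM with dexamethasone and 8.40 ± 1.19 CPM with vehicle in H1 (log2 -0.71 with dexamethasone and -0.44 with vehicle), with 25.0% of its exonic bases shared with other genes. KCNJ12 passed in the vehicle cultures only. Its near-identical copy KCNJ18 was listed at 0, so the level of KCNJ12 is uncertain. KCNJ5, KCNJ8 and KCNJ13 passed in neither. KCNJ9 lost its call between the lines in the dexamethasone cultures without any 1 of H9 dexamethasone culture 2 and 3 and H1 dexamethasone culture 2 and 3 (adjusted p = 0.0580 to 0.0869). KCNJ14 lost its call between the lines in the vehicle cultures without any 1 of H9 vehicle culture 1 and 2 and H1 vehicle culture 1 and 3 (adjusted p = 0.0604 to 0.148).

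Of the 8 two-pore-domain genes, 4 were higher and 2 lower in H9 in both treatments. KCNK12, a THIK subunit, was at 27.4, 27.8 and 33.5 CPM in the H9 dexamethasone cultures and 26.3, 32.4 and 40.6 CPM in the H9 vehicle cultures, against 9.42, 7.17 and 8.00 CPM in the H1 dexamethasone cultures and 9.45, 9.13 and 9.48 CPM in the H1 vehicle cultures. Its log2 differences were 1.85 with dexamethasone and 1.82 with vehicle (adjusted p = 3.92e-06 and 4.77e-06). KCNK13, the other THIK subunit, was low and higher by 1.95 with dexamethasone and 2.48 with vehicle, at averages of 1.99 ± 0.504 CPM with dexamethasone and 2.88 ± 0.616 CPM with vehicle in H9 and 0.516 ± 0.121 CPM with dexamethasone and 0.505 ± 0.0756 CPM with vehicle in H1. It is known in brain as a channel of microglia, whose 4 markers summed to under 1 CPM in every library, with AIF1 listed at 0. The acid-sensitive KCNK3 (TASK-1) averaged 63.0 ± 8.13 CPM with dexamethasone and 67.8 ± 12.3 CPM with vehicle in H9 and 24.9 ± 1.75 CPM with dexamethasone and 27.8 ± 2.04 CPM with vehicle in H1, a log2 difference of 1.34 with dexamethasone and 1.29 with vehicle. Its relative KCNK9 was higher by 0.79 with dexamethasone and 0.77 with vehicle. KCNK6 (chr19:38319844-38332076) was lower in H9, at 0.197, 0.417 and 0.230 CPM in the H9 dexamethasone cultures and 0.162, 0.459 and 0.544 CPM in the H9 vehicle cultures, against 1.16, 1.53 and 1.13 CPM in the H1 dexamethasone cultures and 1.02, 1.72 and 1.08 CPM in the H1 vehicle cultures. KCNK6 thus differed by -2.14 ± 0.41 on the log2 scale with dexamethasone (adjusted p = 0.00117) and by -1.77 ± 0.40 with vehicle (adjusted p = 0.00346). KCNK10, a mechanosensitive TREK channel, was lower, at 37.6 ± 2.31 CPM with dexamethasone and 41.4 ± 5.27 CPM with vehicle in H9 against 59.6 ± 4.27 CPM with dexamethasone and 53.8 ± 0.674 CPM with vehicle in H1 (log2 -0.67 with dexamethasone and -0.38 with vehicle, adjusted p = 0.000308 and 0.0107). The TREK gene KCNK2 was lower in the vehicle cultures (log2 fold change -0.74 ± 0.14, adjusted p = 0.00137), and KCNK1 was higher in the dexamethasone cultures (log2 fold change 0.59 ± 0.21, adjusted p = 0.0374). KCNK1 lost its call between the lines in the dexamethasone cultures without any 1 of H9 dexamethasone culture 1 and 3, H1 dexamethasone culture 1 and 3 and H1 vehicle culture 1, 2 and 3 (adjusted p = 0.0523 to 0.144).

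Genes that work with these channels were read from lists of partners and of potassium transport. Of 18 partner genes, 14 were tested, and 8 were higher in H9 in both treatments, where 18.3% of all genes were, and 1 lower, where 14.7% were. The median log2 difference of the list was 0.64 with dexamethasone and 0.74 with vehicle, beside the medians near 0 of all genes. LGI1, a secreted protein bound to Kv1 complexes at synapses, had the largest log2 differences, 2.77 with dexamethasone and 2.23 with vehicle, at averages of 12.3 ± 0.747 CPM with dexamethasone and 10.8 ± 5.13 CPM with vehicle in H9 and 1.79 ± 0.221 CPM with dexamethasone and 2.33 ± 0.700 CPM with vehicle in H1. ABCC8, the sulfonylurea receptor that joins KCNJ11, was higher by 1.54 with dexamethasone and 1.77 with vehicle, and ABCC9, its relative, by 0.61 with dexamethasone and 0.55 with vehicle. The Kv4 partners DPP10 and DPP6 were higher by 1.16 with dexamethasone and 1.05 with vehicle and by 0.67 with dexamethasone and 1.26 with vehicle, the Kv2 partner AMIGO1 by 0.76 with dexamethasone and 0.92 with vehicle, the Kv1 anchoring gene CNTNAP2 by 0.86 with dexamethasone and 1.15 with vehicle and the pacemaker channel HCN2 by 1.11 with dexamethasone and 1.66 with vehicle. LRRC55, a BK auxiliary subunit, was lower, at 20.1 ± 0.890 CPM with dexamethasone and 15.1 ± 3.32 CPM with vehicle in H9 against 45.05 ± 5.37 CPM with dexamethasone and 36.5 ± 2.79 CPM with vehicle in H1 (log2 -1.17 with dexamethasone and -1.27 with vehicle), the same direction as KCNMB4. Of 11 genes of potassium transport, 6 were higher and 0 lower in both treatments, against the same 18.3% and 14.7% of all genes, with medians of 0.67 with dexamethasone and 0.53 with vehicle. They included the sodium pump beta subunits ATP1B1 and ATP1B2 and the potassium-chloride cotransporters SLC12A4 and SLC12A5. SLC12A5 (KCC2), which keeps chloride low in mature neurons, was at 64.9 ± 6.30 CPM with dexamethasone and 61.5 ± 4.64 CPM with vehicle in H9 and 25.5 ± 2.36 CPM with dexamethasone and 21.7 ± 2.57 CPM with vehicle in H1 (adjusted p = 4.04e-06 and 2.07e-06).

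The second comparison asked which channel genes changed after dexamethasone, against vehicle, within each line. By edgeR's quasi-likelihood test 0 of 69 members passed in H9, where 0.0673% of all genes tested did, 0 in H1, where 0.0505% did, and 0 over both lines, where 0.101% did. The test of the difference between the effects of H9 and H1 called 0 members and 0% of all genes. DESeq2 also called 0 members in each of these. At an unadjusted p under 0.05 there were 10 members in H9 (16.3% of all genes), 3 in H1 (2.95%), 3 over both lines (7.49%) and 10 for the difference (7.46%). The median log2 change of the members was -0.11 in H9, where that of all genes was -0.02, and both medians were close to 0 in H1. In H9 the median of the members was 0.01 without H9 vehicle culture 3.

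**Figure D4:**
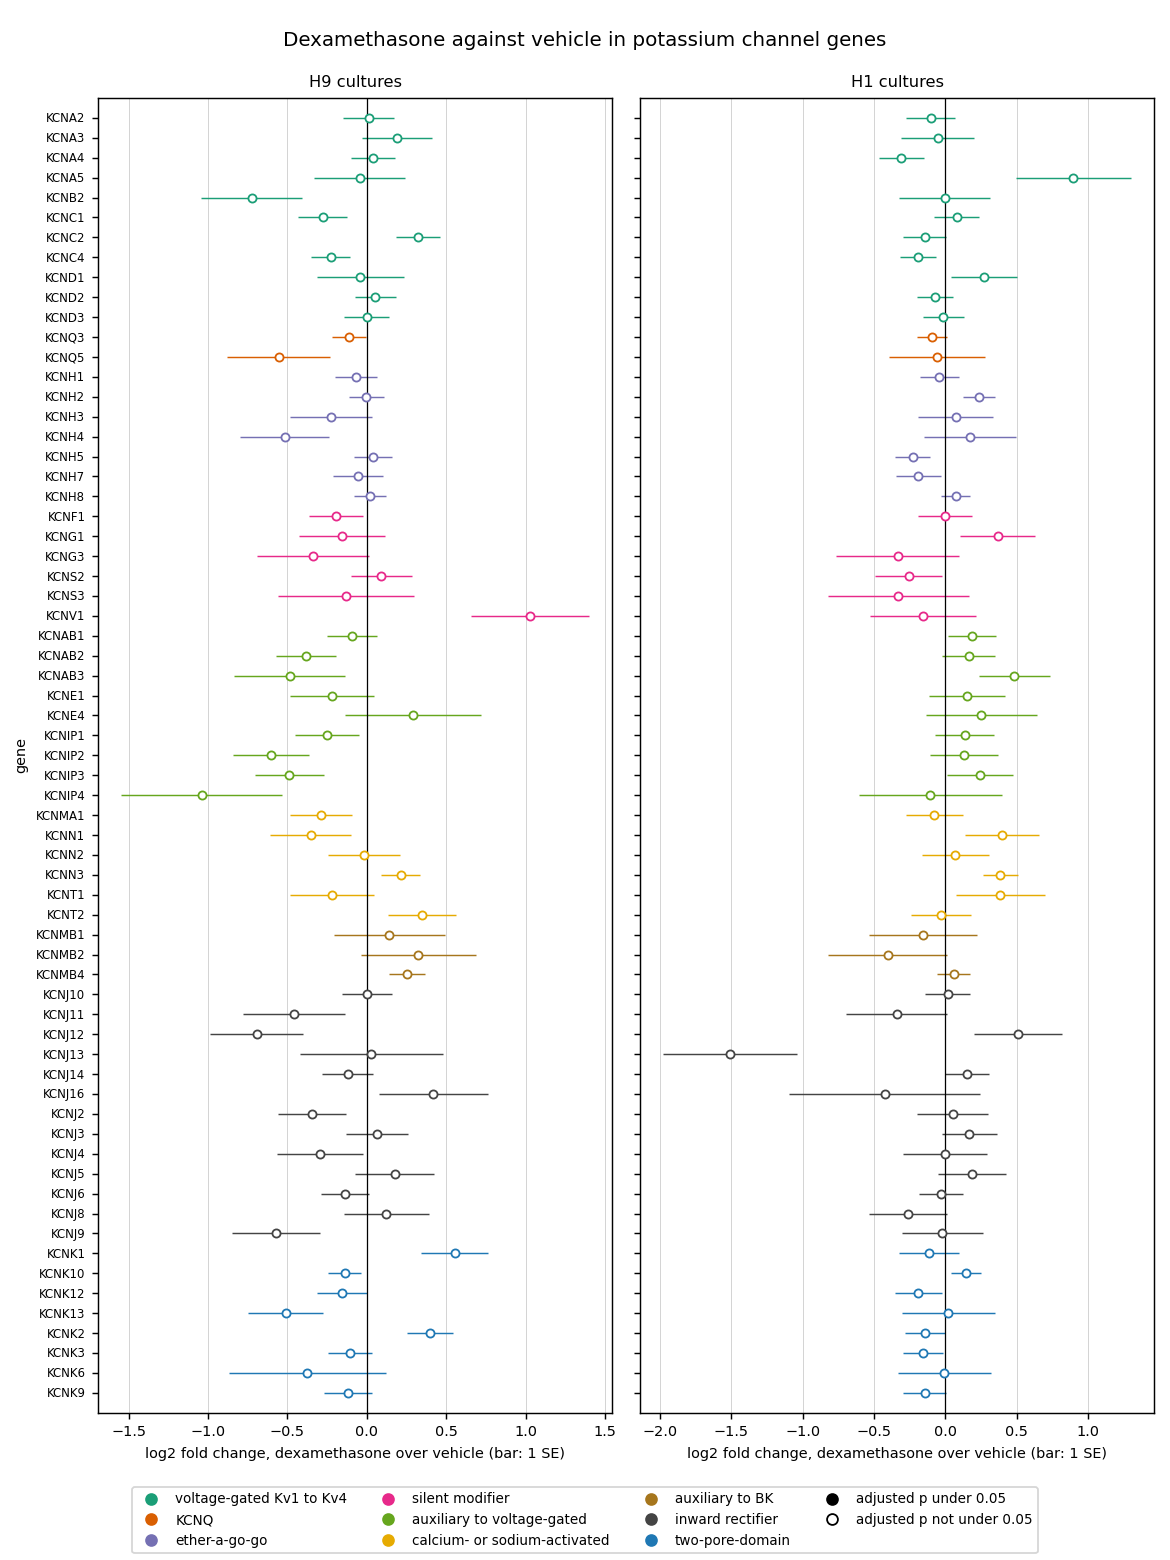
Log2 fold change of dexamethasone over vehicle for the members shown (rows, coloured by channel class), in H9 on the left and H1 on the right. Bars are 1 standard error, and open points did not reach an adjusted p under 0.05. All points drawn are open, and KCNJ13 lies farthest left in H1 at -1.51.

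KCNJ13 (Kir7.1, chr2:232766464-232776568), an inward rectifier of choroid plexus and retinal pigment epithelium, had the smallest unadjusted p of the members in H1. There it was at 0.579, 0.866 and 0.781 CPM with dexamethasone and 1.65, 2.60 and 2.08 CPM with vehicle, without overlap, from counts of 15, 21 and 20 and of 39, 68 and 52. The log2 change was -1.51 ± 0.47, with an unadjusted p of 0.00746 and an adjusted p of 1.00 by edgeR. In H9 it was at 1.33, 1.502 and 1.92 CPM with dexamethasone and 1.82, 2.34 and 0.272 CPM with vehicle, where H9 vehicle culture 3 lay below all others and the groups overlapped. Without that culture, KCNJ13 was the 1 member that passed in H1 (adjusted p = 0.0116, 0.326% of all genes called) and the 1 that passed over both lines (log2 -0.94, adjusted p = 0.0164, 0.774% called), by edgeR. In the fit of the H1 cultures alone its adjusted p was 0.0307. The effects of H9 and H1 differed by 1.54 ± 0.65 on the log2 scale, which did not pass (adjusted p = 0.548). Without H9 vehicle culture 3 this difference was 1.13, and no member passed for it.

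Markers of the tissues that use KCNJ13 were read beside it. Of 4 choroid plexus markers, none was called for dexamethasone in either line. Their summed level was 9.11 to 22.8 CPM in the H1 dexamethasone cultures and 7.88 to 18.7 CPM in the H1 vehicle cultures, which overlap, and 28.7 to 145 CPM with dexamethasone and 20.1 to 114 CPM with vehicle in H9. TTR was at 6.41, 2.64 and 14.1 CPM with dexamethasone and 12.5, 5.99 and 2.72 CPM with vehicle in H1, and FOLR1 at 0.193, 0.330 and 0.156 CPM with dexamethasone and 0.381, 0.153 and 0.480 CPM with vehicle. RPE65, the retinoid isomerase of the pigment epithelium, was at 38.7, 40.8 and 39.9 CPM with dexamethasone and 41.4, 38.9 and 44.1 CPM with vehicle in H1. The part of these cell types in the KCNJ13 values was not tested. By GENCODE 29, 24.3% of the exonic bases of KCNJ13 are shared with GIGYF2 on the other strand, whose reads cannot be told apart from its own here.

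KCNN3 (SK3, chr1:154697455-154870280), which shapes the afterhyperpolarisation, had the next smallest p in H1 and the smallest over both lines (0.00496, unadjusted, by edgeR). It was at 86.7, 73.8 and 74.4 CPM in the H1 dexamethasone cultures and 62.9, 54.4 and 62.7 CPM in the H1 vehicle cultures, without overlap, and at 125, 95.2 and 118 CPM in the H9 dexamethasone cultures and 102, 88.1 and 102 CPM in the H9 vehicle cultures, which overlapped. The log2 change was 0.38 ± 0.12 in H1 and 0.30 ± 0.09 over both lines, with an adjusted p of 1.00 and of 0.494 by edgeR, and of 0.130 and 0.0640 without H9 vehicle culture 3.

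In H1, dexamethasone and vehicle cultures did not overlap in 12 members, 7 of them higher with dexamethasone (7.15% of all genes tested were) and 5 lower (6.98% of all genes). The largest positive log2 values among them, beside KCNN3, were 0.48 ± 0.25 for KCNAB3 and 0.40 ± 0.26 for KCNN1. The largest negative values beside KCNJ13 were -0.31 ± 0.16 for KCNA4 and -0.23 ± 0.12 for KCNH5. In H9 there were 5 members without overlap in the higher direction (9.76% of all genes) and 3 in the lower (11.6%). KCNV1, a silent modifier, had the largest positive value, 1.03 ± 0.37, at 1.53, 1.29 and 1.57 CPM with dexamethasone and 0.972, 0.835 and 0.204 CPM with vehicle, and its mean over the 12 libraries was under 1 CPM. Its value was 0.69 without H9 vehicle culture 3, and its adjusted p of 0.299 by edgeR was the lowest of the members in H9, shared with KCNK1 and KCNK2. Among members without overlap and with a mean of at least 1 CPM, the largest positive values were 0.55 ± 0.21 for KCNK1, 0.42 ± 0.34 for KCNJ16 and 0.40 ± 0.15 for KCNK2. The largest negative ones in that set were -0.69 ± 0.29 for KCNJ12, -0.60 ± 0.24 for KCNIP2 and -0.49 ± 0.22 for KCNIP3. Without H9 vehicle culture 3 these last were -0.43, -0.16 and -0.21, and KCNK1, KCNJ16 and KCNK2 were 0.37, 0.14 and 0.38. Members whose groups overlapped in H9 had larger negative values, -1.04 for KCNIP4 and -0.73 for KCNB2. Those were 0.17 and -0.11 without H9 vehicle culture 3. None of them passed the test.

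**Figure D5:**
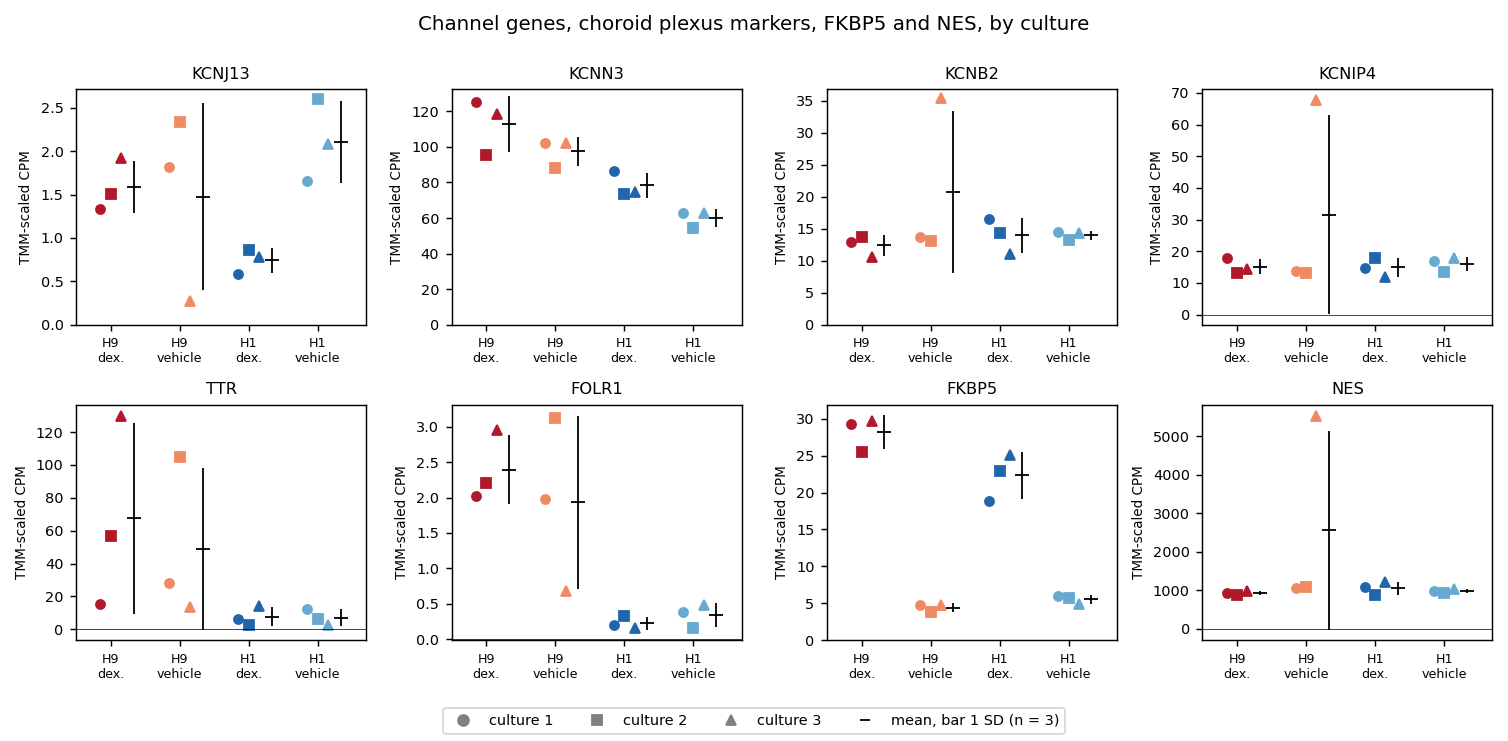
TMM-scaled CPM in each culture of KCNJ13, KCNN3, KCNB2 and KCNIP4, the choroid plexus markers TTR and FOLR1, the glucocorticoid target FKBP5 and the progenitor gene NES, by group as above. Symbols are culture numbers and bars are mean and 1 SD of 3 cultures. KCNJ13 in H1 is below the vehicle cultures with dexamethasone, and H9 vehicle culture 3 is the highest culture for KCNB2, KCNIP4 and NES and the lowest for KCNJ13.

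H9 vehicle culture 3 itself differed in its channel genes. Of the 69 members, 44 were higher in it than in each of the other 5 H9 cultures (63.8%, where 41.3% of all genes were), and 14 were lower (20.3%, against 40.2%). KCNIP4 had the highest ratio to the mean of its vehicle sisters, 5.05, and KCNJ13 the lowest, 0.131. The ratio was at least 2 in 11 members, among them KCNJ11 at 2.65, KCNB2 at 2.64 and KCNJ9 at 2.41. The next lowest were KCNV1, KCNMB2, KCNMB1, KCNJ16 and KCNJ8, at 0.226 to 0.445. These values describe 1 library and carry no test.

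The 28 genes that were not kept were low or listed at 0. KCNA1, a main Kv1 pore of axons, KCNA6, KCNA10, KCNJ18 and KCNK16 were listed at 0 in every library. KCNA6 lies wholly within exons of another annotated gene on the same strand in GENCODE 29. Since SOX2, HES5 and the pacemaker channel gene HCN3 were listed at 0 as well, a 0 here is not read as absence of RNA. KCNQ1, KCNN4, KCNE2, KCNMB3 and KCNG2 were tested but not kept. Just inside the threshold, KCNS3 reached 1 CPM in 3 libraries and KCNV1 in 5, with means over the 12 libraries of 0.867 and 0.958 CPM. Just outside, KCNMB3, KCNQ1 and KCNG2 reached it in 1 library each, with means of 0.639, 0.623 and 0.406 CPM. Of the 69 members, 56 reached 1 CPM in all 12 libraries.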

How the data were processed

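For each of the 12 libraries the authors deposited whole-number read counts per gene, with no normalization. The submitters' processing notes name STAR 2.5.3a, HTSeq, hg38 and GRCh38.p10. Which annotation release and strand option HTSeq used, and how it treated multiply mapped reads, is not given in the sources used here. Per the labels more than 1 flow cell was used, with no flow cell given per library. Symbols were matched for 57532 IDs from the reference gene names and for 549 from GENCODE 29, which also gave coordinates, exon lengths and overlaps on GRCh38.

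Low counts were removed with filterByExpr, libraries were scaled by TMM in edgeR 4.0.16, and a mean was fitted for each group across the 12 libraries (residual degrees of freedom: 8). Quasi-likelihood F-tests were adjusted by the Benjamini-Hochberg method over 17819 genes, with a threshold of 0.05. Values after ± are standard errors for log2 fold changes and SDs over 3 cultures for levels. The standard errors, also those drawn, were back-calculated as the absolute log2 fold change over the square root of its F value. They are unreliable for changes close to 0. The fit was checked on simulated data. No pair of sister cultures agreed within sampling noise. The chi-square per degree of freedom was 167 and 175 in the pairs with H9 vehicle culture 3 and 4.08 to 10.4 in all others. Alternatives were RLE scaling, DESeq2 1.42.0, other filters and library sizes, culture number as a term, fits of 1 line alone and each library left out in turn. Fold changes are named for up to 3 members each way per class that passed in both treatments, for the highest member of each class per kb, for the largest dexamethasone changes without overlap among members with a mean of at least 1 CPM, and for partner genes that passed; other members named by a fold change were chosen after their values were seen. Members and lists were chosen with earlier results of these data known. Values of a few genes are not reported here or drawn, though counts and sums include them. R was version 4.3.3, Python 3.11.15 and matplotlib 3.10.9.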

Additional observations from a re-analysis of the deposited data

Results flagged for a closer look

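4 of 26 KCN symbols outside the protein-coding set had at least 1 CPM in at least 3 libraries, and no comparison above uses them. The antisense RNA KCNQ1OT1, which lies opposite KCNQ1 and is known from imprinting, averaged 20.3 CPM over the 12 libraries, while KCNQ1 averaged 0.623 CPM. It was at 14.4, 14.8 and 12.9 CPM in the H9 dexamethasone cultures and 16.0, 15.2 and 46.7 CPM in the H9 vehicle cultures, against 19.8, 25.1 and 16.9 CPM in the H1 dexamethasone cultures and 17.5, 24.4 and 19.7 CPM in the H1 vehicle cultures. KCNMB2-AS1 averaged 3.41 CPM and KCNK15-AS1 2.97 CPM over all libraries. KCNJ2-AS1 averaged 1.42 CPM, at 2.47, 2.46 and 2.19 CPM in the H9 dexamethasone cultures and 2.75, 2.71 and 1.56 CPM in the H9 vehicle cultures, against 0.270, 0.495 and 0.468 CPM in the H1 dexamethasone cultures and 0.635, 0.496 and 0.480 CPM in the H1 vehicle cultures, and its H9 cultures lay above its H1 cultures as those of KCNJ2 did. The strand setting of the counting is not given, so reads of these RNAs and of the genes opposite them cannot be told apart.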

How the results depend on the processing

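The number of members was 69 with TMM-scaled library sizes too. The vehicle line counts of 41 members higher and 7 lower ran from 39 to 45 and from 6 to 9 under the other settings, and from 37 to 43 and 6 to 8 with each library left out. The dexamethasone line counts of 38 and 7 ran from 38 to 40 and from 7 to 8, and from 33 to 45 and 6 to 9 with each library left out. The replicate block, culture number as a term, gave 39 and 8 in the vehicle cultures, 38 and 7 in the dexamethasone cultures, and 0 for each dexamethasone effect. Same-numbered cultures correlated at -0.01 to 0.11 in H9 and 0.05 to 0.18 in H1. Different-numbered ones correlated at -0.13 to 0.08 in H9 and -0.18 to 0.07 in H1, so the ranges overlapped, though only a little in H1. The labels state no pairing, and the numbers were not read as pairs in the main fit. These values do not settle whether H1 cultures were paired. Of the calls between lines, 42 of 48 in the vehicle and 38 of 45 in the dexamethasone cultures held in all 12 fits that left out a library. Members lower with dexamethasone in H1 numbered 1 in the fit of that line alone, 0 to 1 with each library left out in H1 and 0 to 1 over both lines. No dexamethasone count of 0 changed otherwise. Library depth limits genes near 1 CPM, such as KCNJ13 and KCNK6, whose counts are few.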
